A study of Danio rerio with 6 samples.

Results

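The genes described here encode the complexes of oxidative phosphorylation and the factors that build them, as measured in adult zebrafish brain. They were chosen by name alone: a target, meaning 1 transcript covered by up to 3 probes on the array, was taken in when its gene symbol began with nduf, uqcr, cox followed by a digit, atp5, sdh followed by a, b, c or d, cyc1 or cycs. This took in 46 of 38489 targets, which belong to 42 genes: 36 targets by a symbol in the array files and 10 by their RefSeq symbol. By role they were 16 targets of complex I, 4 of complex II, 4 of complex III, 4 of complex IV, 8 of complex V, 9 of assembly factors and regulators, and 1, cox4nb, which carries an old cox name but belongs to the membrane protein complex of the endoplasmic reticulum (current symbol emc8).

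Whole brains of AB strain females were taken at 12 months of age, 1 brain per array, and their RNA was labelled with Cy3 and hybridised to one-colour oligonucleotide arrays. The lead group (3 fish) had been held as embryos in lead acetate at 100 ppb from before 2 hours until 72 hours after fertilization, the control group (3 fish) at 0 ppb over the same hours, and both then grew up in water with no lead. The comparison asks whether RNA levels in the aged female brain differ after that early exposure; males were not analysed here. Median target intensity was 2100 to 2211 per array, 8 of 8 measured neuron markers and 5 of 5 measured glia markers exceeded the random control probes in all 6 brains, and the control and lead arrays lie at different positions of 1 scan set, so position and group cannot be told apart.

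In the mitochondrial inner membrane, complexes I and II take electrons from NADH and from succinate and hand them to ubiquinone. Complex III passes them to cytochrome c, and complex IV passes them from there to oxygen. Complexes I, III and IV pump protons, and complex V, the ATP synthase, uses the proton gradient to make ATP, on which neurons depend heavily for ion pumping and synaptic transmission. Most subunits are encoded in the nucleus and are counted here, while a core set is encoded in mitochondrial DNA.

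Between lead and control brains the change in messenger RNA was under 1.5-fold for 44 of 46 targets of the oxidative phosphorylation genes, where 96.1% of all targets lay under that bound. The other 2 were ndufs8 and ndufs8b, of which ndufs8b read at background in every brain. Of the 46 targets, 0 passed an adjusted p of 0.05 and 0 had an unadjusted p under 0.05 (limma on log2 intensity, Benjamini-Hochberg adjustment over all targets). Over all targets the adjusted test called 0.0% and the unadjusted one 4.41%, and among targets above the random control probes on every array the unadjusted one called 3.97%. Of the 46 changes 27 were above 0 and 19 below, with a median of 0.027 log2 against 0.003 over all targets, and 50.5% of all targets had a change above 0. The smallest p was that of sdhda, and the smallest adjusted p was 0.958. A p that misses the threshold does not show equal levels, so the interval of each change was read as well. The 95% interval lay within a 1.5-fold difference in both directions for 38 of the 46 targets, against 50.2% of all targets. Among targets above the random probes on every array it did so for 35 of 39 members, against 57.9% of all such targets. In whole brain, fewer cells of a type and less RNA per cell cannot be told apart, and the p-values measure the spread between these 6 fish.

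Of the 46 targets 39 were above the 95th percentile of the random probes on every array, 1 target of ndufv3 was above it on 5 arrays, and 6 were under it on every array. The 6 were ndufs8b, ndufb5, both targets of sdhc, 1 of the 2 targets of cyc1, and ndufa12l. Their readings show no level of those transcripts, and a change printed for any of them is a difference between readings at background. The other members varied little from brain to brain. The range over the 6 brains was under 0.5 log2 for 33 of 39 targets and had a median of 0.32, against 0.54 for all targets above the random probes. The narrowest was atp5l, at 0.076, and only ndufs8, at 2.25, and cox5b2, at 1.31, spanned more than 1 log2. Neither these ranges nor the intervals were set beside targets of like intensity. Members read up to 15.33 log2, where the highest value of any target was 15.88.

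**Figure D1:**
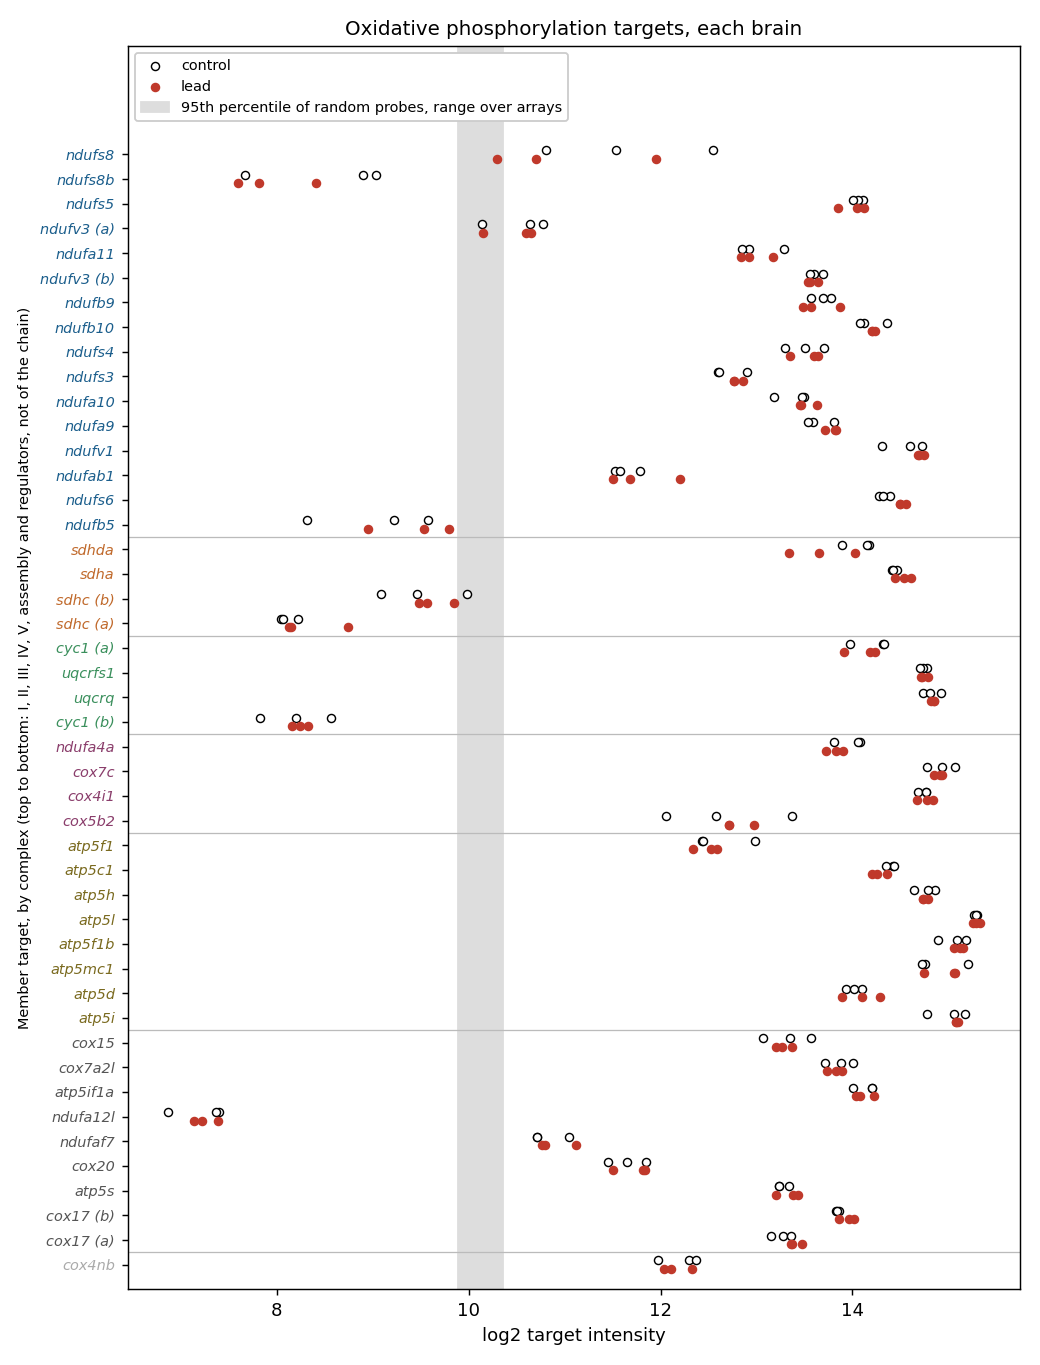
Log2 intensity (x axis) of the 46 member targets (y axis, grouped and coloured by complex) in each of 3 control brains (open) and 3 lead brains (filled), with the range over arrays of the 95th percentile of the random probes as a grey band. The groups interleave for all targets but ndufs6 and 1 target of cox17, and 6 targets lie under the random probes on every array; levels of different targets are not comparable.

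Control and lead values did not overlap for 2 of the 46 targets, ndufs6 and 1 target of cox17, both higher in lead. Over all targets this held for 9.49%, and for 5.74% in the higher direction; among those above the random probes it held for 10.0%. The gap between the groups was 0.10 log2 for ndufs6 and under 0.001 log2 for cox17. With 1 brain left out the count ran from 4 to 9 of 46, where 15.8% to 25.2% of all targets had groups that did not overlap.

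**Figure D2:**
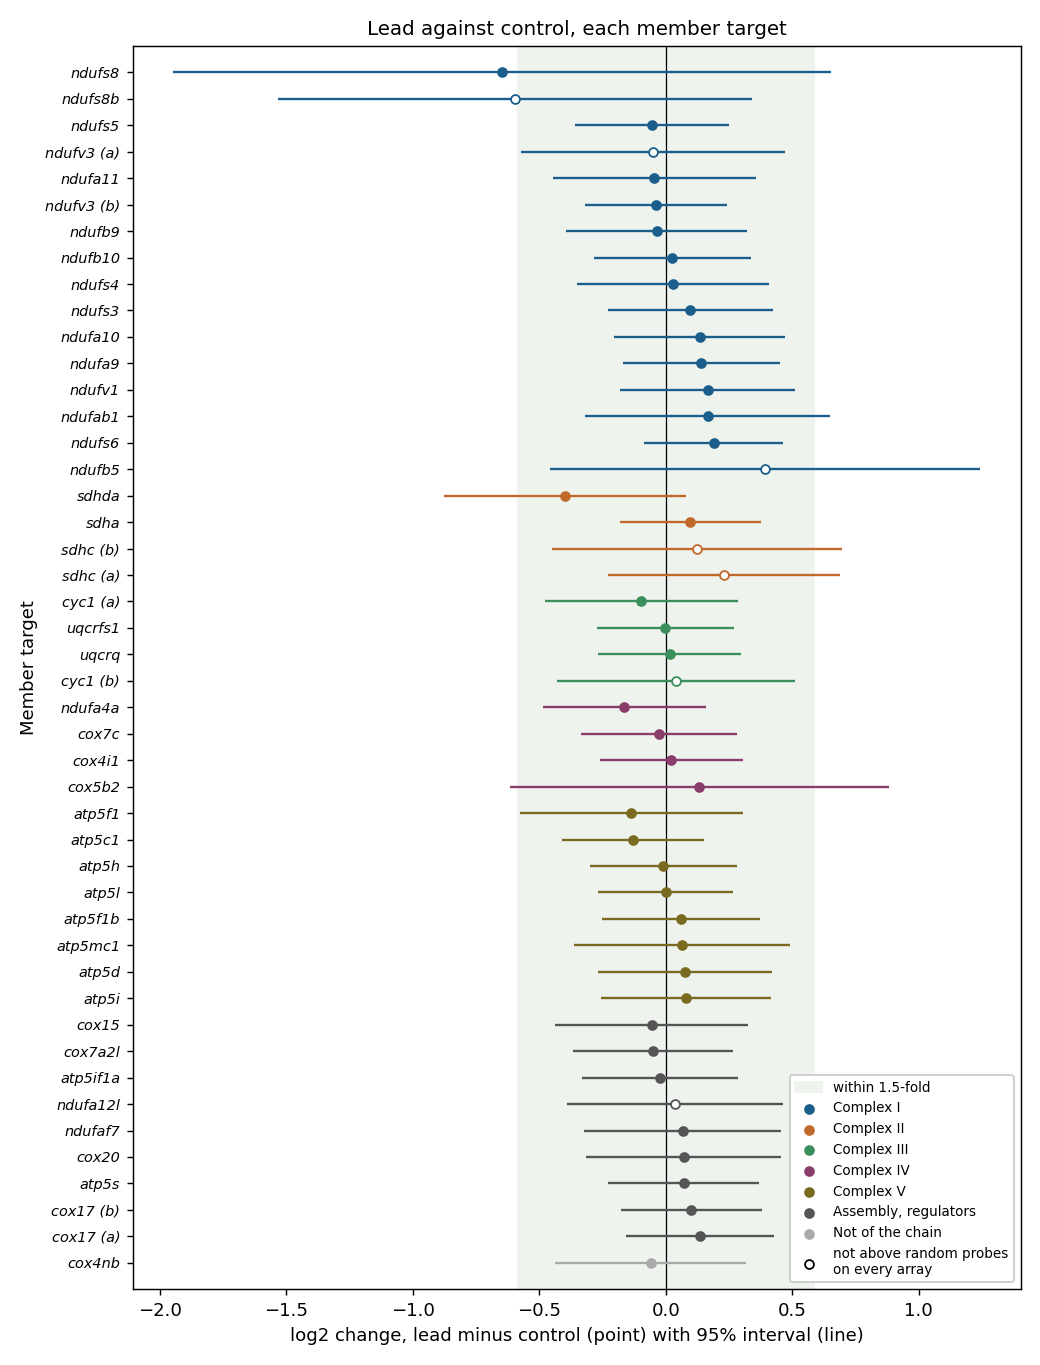
Log2 change, lead minus control (point), with its 95% interval (line) for each member target, by complex, with the band of 1.5-fold in green and open points for targets not above the random probes on every array. All 46 intervals include 0, and 38 lie inside the band; ndufs8, ndufs8b, ndufb5, cox5b2 and sdhda have the widest or most displaced intervals.

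Complex I oxidises NADH in a peripheral arm, made of an NADH module and a quinone module, and pumps protons in a membrane arm. Its 16 targets had a median change of 0.03 log2, with 9 above 0 and 7 below, and 12 intervals lay within 1.5-fold. In the NADH module, ndufv1, the flavoprotein that binds NADH, had log2 values of 14.31, 14.72 and 14.60 in controls and 14.70, 14.75 and 14.68 in lead. Control 1 was the low brain and the other 5 lay close together, giving a change of 0.17 ± 0.15 (SE, n = 3 per group), with a limma adjusted p of 0.958.

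The highest change in complex I among targets above the random probes was that of ndufs6, an accessory subunit that binds zinc. Its values were 14.27, 14.40 and 14.32 in controls and 14.50, 14.56 and 14.50 in lead. All 3 lead brains lay above all 3 controls, yet the change was 0.19 ± 0.12 log2, a mean intensity of 23489 ± 572 (SD, n = 3) in lead against 20594 ± 884 in controls, with a limma adjusted p of 0.958. Its own spread was small: its unadjusted p was under 0.05 without the moderation of variances over all targets and with a trend and robust moderation, while the limma adjusted p was 0.961 and 0.960. The 3 probes of ndufs6 changed by 0.22, -0.05 and 0.20 log2. A further target, named after its homologue and lying on the same chromosome, changed by 0.09 log2, with values that overlapped between the groups.

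The other members of the NADH module stayed near 0: ndufs4, an accessory subunit, changed by 0.03 log2, and the 2 member targets of ndufv3, an accessory subunit with more than 1 transcript, by -0.05 and -0.04. Targets named after the NDUFV3 homologue, not counted as members, changed by 0.38 ± 0.16 and 0.22 ± 0.22 (limma adjusted p = 0.958 and 0.959). For the first the groups did not overlap, but it was above the random probes in only 1 of 3 controls and 3 of 3 lead brains.

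In the quinone module, where iron-sulfur clusters pass electrons to ubiquinone, ndufs8 (current symbol ndufs8a) had the lowest change of all 46 targets and the widest spread. Its values were 10.81, 11.54 and 12.54 in controls and 10.70, 10.30 and 11.95 in lead. The groups overlapped, control 3 and lead 3 were high within their own groups, and the change of -0.65 ± 0.55 log2 had a limma adjusted p of 0.958. Left out in turn, the 6 brains gave changes from -1.13 to -0.19, the last without control 3.

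The single probes of ndufs8 disagreed. The probe nearest the end of the transcript by its number was steady, at 12.80 log2 or above in all 6 brains, and changed by -0.09 ± 0.14. The middle probe ran from 9.58 to 12.75 and changed by -1.10 ± 0.72. The first probe ran from 6.70, in control 1, to 11.76, in control 3, and changed by 0.37 ± 1.28. The deposited target value followed the 2 unsteady probes, and the spread of ndufs8 between brains was not seen with all of its probes. Only 3 of the 115 probes of members above the random probes ranged over more than 2 log2 between brains: these 2, and 1 probe of atp5f1. That is 2.61% of them, against 2.81% of the probes of all targets above the random probes.

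Of the quinone module's other members, ndufs3, a core subunit, had 12.90, 12.59 and 12.61 in controls and 12.86, 12.76 and 12.77 in lead, and changed by 0.10 ± 0.14. The groups overlapped. The accessory subunit ndufa9, which sits where the arms meet, changed by 0.14 ± 0.13. The duplicate ndufs8b was under the random probes in every brain.

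Subunits of the membrane arm spanned -0.05 to 0.17 log2 among the 6 targets above the random probes. The lowest was ndufs5 and the highest ndufab1, the mitochondrial acyl carrier protein, which also serves fatty acid synthesis. The values of ndufab1 were 11.53, 11.58 and 11.79 in controls and 11.50, 12.21 and 11.68 in lead, so lead 2 alone stood above the other 5. Its interval, -0.32 to 0.65, reached past 1.5-fold. The intervals of the other 5 lay within 1.5-fold. Of the accessory subunits, ndufa10 stood at 13.49, 13.47 and 13.18 in controls and 13.63, 13.46 and 13.45 in lead, where control 3 was the low brain, and it changed by 0.13 ± 0.14. For ndufb10 the controls read 14.12, 14.37 and 14.08 and the lead brains 14.23, 14.20 and 14.21, so the lead values fell inside the control range, with a change of 0.03 ± 0.13. For ndufs5 they were 14.11, 14.06 and 14.01 against 14.12, 13.85 and 14.05, and lead 2 alone was low. The changes of ndufa11 and ndufb9 were -0.04 ± 0.17 and -0.04 ± 0.15.

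**Figure D3:**
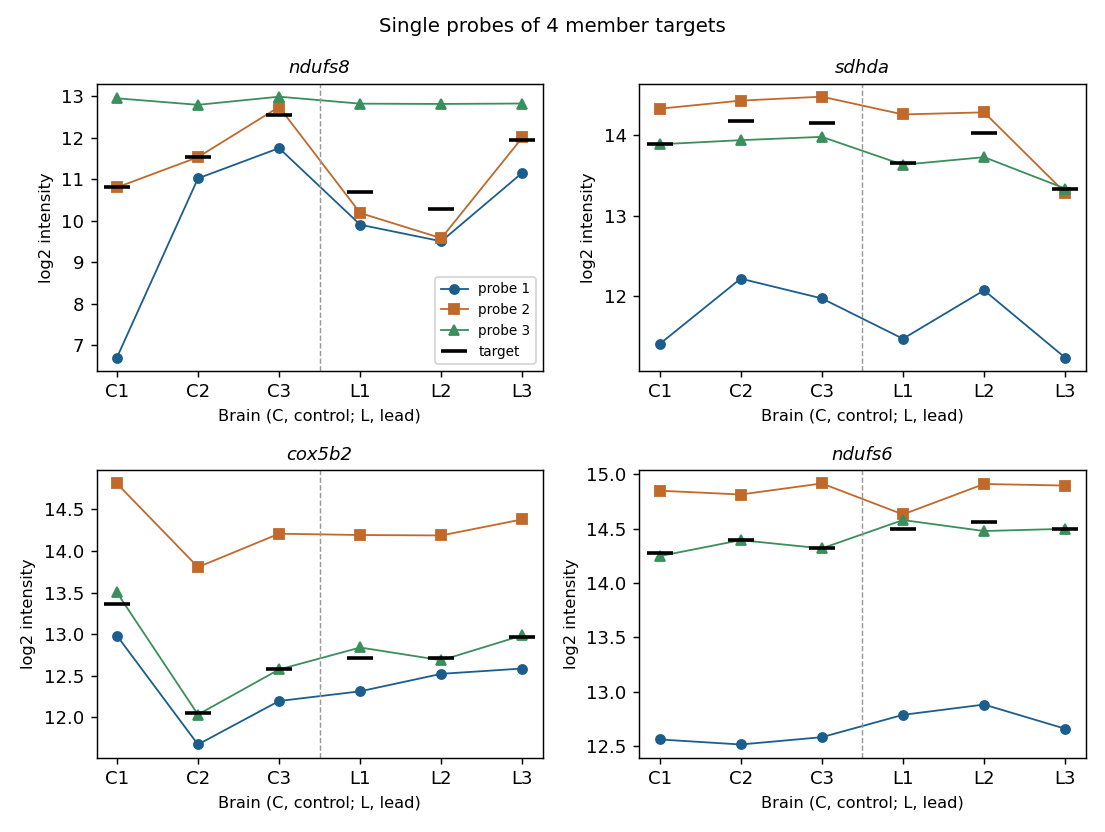
Log2 intensity (y axis, a scale of its own in each panel) of the 3 probes of ndufs8, sdhda, cox5b2 and ndufs6 in each brain (x axis; C, control; L, lead), with black bars for the deposited target value. For ndufs8 probe 3 stays at 12.80 or above while probes 1 and 2 swing between brains; in cox5b2 all 3 probes are highest in control 1 and lowest in control 2.

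Complex II, succinate dehydrogenase, is also an enzyme of the citric acid cycle. Its membrane anchor gene sdhda lies on chromosome 5 at 21863177 to 21872305 of the Zv7 assembly and had the smallest p of all members. Its values were 13.89, 14.18 and 14.16 in controls and 13.66, 14.03 and 13.34 in lead. Lead 1 and lead 3 lay below all controls, and lead 2 lay above control 1. The mean intensity was 13331 ± 3225 (SD, n = 3) in lead against 17321 ± 1882 in controls, a log2 change of -0.40 ± 0.20, with a limma adjusted p of 0.958. The 3 probes changed by -0.27, -0.47 and -0.37. Lead 3 set much of the size: without it the change was -0.23, and without lead 2 it was -0.58 with an unadjusted p under 0.05 and a limma adjusted p of 0.879.

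The flavoprotein gene sdha, which holds the succinate site, stood at 14.46, 14.41 and 14.42 in controls and 14.61, 14.54 and 14.45 in lead. The groups overlapped by 1 pair of brains, and the change was 0.10 ± 0.12. Both targets of the second anchor, sdhc, were under the random probes in all 6 brains. A target named after the SDHC homologue, on the same chromosome, was above them in every brain at 14.40 to 14.63 and changed by 0.03, and one named after SDHB, the iron-sulfur subunit, changed by -0.03. The median of the 4 members, 0.11, thus rested on 2 targets with no measured level, and over sdha and sdhda alone it was -0.15.

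The 4 targets of complex III, the cytochrome bc1 complex, had a median change of 0.01 log2, whose sign turned after quantile normalization was applied again, over the 3 targets above the random probes alone, with 1 target per gene, and without control 2 or control 3. The Rieske iron-sulfur protein gene uqcrfs1 was among the steadiest members: 14.78, 14.73 and 14.71 in controls, 14.72, 14.78 and 14.71 in lead, a change of -0.00 ± 0.11 whose sign turned with each array centred on its median. The brains of both groups covered the same range. The small subunit uqcrq changed by 0.02 ± 0.12. The cytochrome c1 gene cyc1, whose product hands electrons to cytochrome c, stood at 13.97, 14.32 and 14.33 in controls and 14.19, 13.92 and 14.23 in lead. Lead 2 and control 1 were the low brains, and the change was -0.10 ± 0.16. Its second target, from the same locus, was under the random probes.

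Complex IV, cytochrome c oxidase, had a median of -0.00 log2 over 4 targets, of either sign by the scaling. The regulatory subunit gene cox4i1 stood at 14.77, 14.68 and 14.76 in controls and 14.84, 14.67 and 14.77 in lead, a change of 0.02 ± 0.12 between groups that overlapped. The gene of subunit VIIc, cox7c, changed by -0.03 ± 0.13. Lowest was ndufa4a, named as a complex I gene but known in mammals as a subunit of complex IV, with 14.08, 13.81 and 14.06 in controls, 13.90, 13.83 and 13.73 in lead and a change of -0.16 ± 0.14.

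The copy of subunit Vb called cox5b2 varied among the controls themselves. Its values were 13.37, 12.06 and 12.58 in controls and 12.72, 12.71 and 12.97 in lead. Control 1 was the highest and control 2 the lowest of the 6 brains, in all 3 probes, and the lead brains lay between. The change was 0.13 ± 0.32, with an interval of -0.62 to 0.88, and without control 2 it was -0.17.

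All 8 targets of complex V had intervals within 1.5-fold. In the catalytic head, atp5f1b, the catalytic beta subunit, stood at 14.89, 15.09 and 15.19 in controls and 15.06, 15.13 and 15.16 in lead, a change of 0.06 ± 0.13. Every lead brain lay inside the control range. The gene atp5d, of the small delta subunit of the rotor, stood at 14.10, 13.93 and 14.02 in controls and 14.10, 14.28 and 13.89 in lead, and lead brains were both the highest and the lowest (0.08 ± 0.15). The central rotor gene atp5c1 stood at 14.43, 14.44 and 14.35 in controls and 14.36, 14.21 and 14.26 in lead. The groups overlapped by lead 1, and the change was -0.13 ± 0.12.

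In the membrane part of complex V, the c-ring gene atp5mc1 changed by 0.07 ± 0.18 and atp5i, subunit e of the dimer interface, by 0.08 ± 0.14. The steadiest member of all was atp5l, subunit g, at 15.27, 15.30 and 15.29 in controls and 15.28, 15.25 and 15.33 in lead, a change of 0.00 ± 0.11. These values lie near the top of the array's scale, where the highest log2 value of any target was 15.88.

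In the stator, atp5h, subunit d, changed by -0.01 ± 0.12. The gene atp5f1, subunit b of the stator, had 12.44, 12.44 and 12.99 in controls and 12.53, 12.59 and 12.34 in lead. Control 3 alone stood apart, the change was -0.14 ± 0.19, and without control 3 it was 0.05. Its probes again disagreed. One probe was steady at 15.36 to 15.53 and changed by 0.11 ± 0.14, while the last probe read 12.17, 13.14 and 13.10 in controls and 8.61, 10.45 and 12.34 in lead, a change of -2.34 ± 0.88. That probe had a limma adjusted p of 0.956. Over the 136 probes of the members 4 had an unadjusted p under 0.05 and 0 passed the adjustment, where 4.28% of all 113549 probes passed the unadjusted threshold. Of the 44 members with 3 probes, 11 had all probes changed in 1 direction. The share over all targets was not computed, so this count does not set the members apart from other targets.

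The 9 targets of assembly factors and regulators had a median of 0.07 log2, and all 9 intervals lay within 1.5-fold. That of ndufa12l, under the random probes in every brain, bounds no change of a measured level, which leaves 8 of 8. The copper chaperone gene cox17, which brings copper to complex IV, had a first target at 13.28, 13.15 and 13.36 in controls and 13.37, 13.47 and 13.36 in lead, a change of 0.14 ± 0.12. The lowest lead brain and the highest control brain agreed to the second decimal. Its second target changed by 0.10 ± 0.12, with overlapping groups. The heme A synthase gene cox15 changed by -0.05 ± 0.16, cox20, a chaperone of the copper-holding subunit, by 0.07 ± 0.16, and atp5if1a, an inhibitor of ATP hydrolysis by complex V, by -0.02 ± 0.13. The gene cox7a2l, whose product links complexes III and IV in mammals, stood at 14.01, 13.88 and 13.71 in controls and 13.83, 13.73 and 13.89 in lead, inside the control range, with a change of -0.05 ± 0.13. The complex I methyltransferase gene ndufaf7 and atp5s, known in mammals as a coupling factor of ATP synthase, each changed by 0.07 log2, and cox4nb, which is not of the chain, by -0.06 ± 0.16.

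Across the complexes, the median deviation of the members from their own 6-brain means stayed between -0.12 and 0.20 log2 in each brain. The widest were lead 1 in complex II, at 0.20, control 1 in complex IV, at 0.17, and control 3 in complex II, at 0.14. The complex II values are medians over 4 targets, of which the 2 of sdhc were under the random probes in every brain. They therefore rest in part on readings at background. In complex I the 3 lead brains, at 0.008 to 0.088, lay above the 3 controls, at -0.024 to -0.003, and in the other complexes the groups overlapped. The nearest in complex I were lead 2, at 0.008, and control 2, at -0.003, and 2 of its 16 targets were under the random probes in every brain. Over 41 further complex I targets, from the wider set described below, the lead brains stood at 0.045, 0.015 and -0.030. The controls stood there at -0.026, -0.030 and -0.015, so the groups overlapped. Over all 57 complex I targets together the lead brains, at -0.011 to 0.055, lay above the controls, at -0.029 to -0.020. How often such medians separate in other sets of targets was not tested. Among the 39 members above the random probes, control 1 held the highest value of 11 and lead 3 of 3, while control 2, control 3 and lead 2 each held the lowest value of 10.

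**Figure D4:**
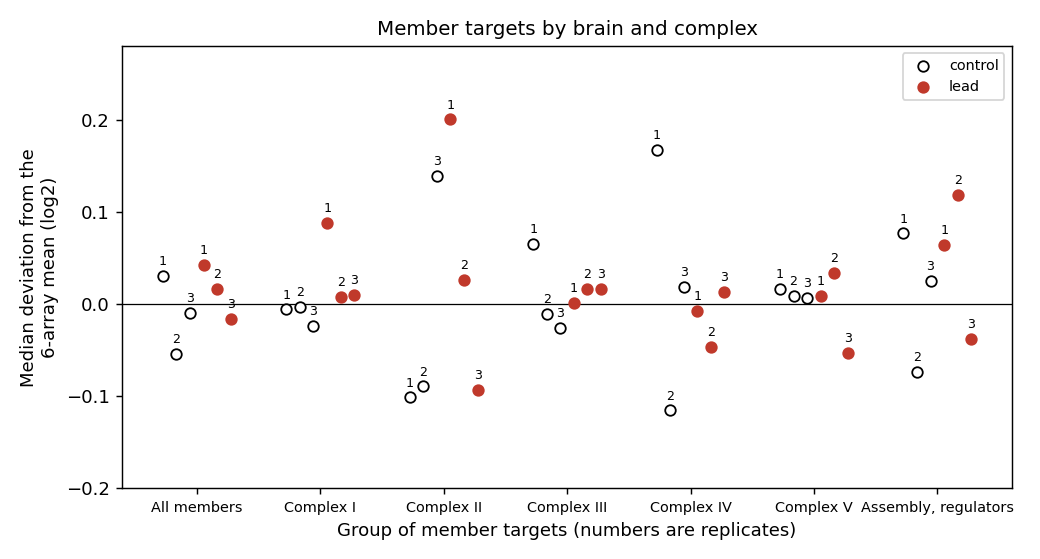
Median deviation from the 6-array mean (y axis, log2) over the member targets of each complex (x axis), 1 point per brain, open for control and filled for lead, with replicate numbers. The groups overlap except in complex I, where the lead points lie at 0.008 to 0.088 and the control points at -0.024 to -0.003. Over 41 further complex I targets of the wider set, not drawn, the groups overlap, and over all 57 together they do not. The most distant are lead 1 in complex II (0.20) and control 1 in complex IV (0.17). Of the 4 targets of complex II, 2 were under the random probes in every brain.

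The name rule misses genes for which the files carry a name other than the current symbol, or only the name of a homologue. Another 28 targets of 21 genes had a placeholder name whose current RefSeq symbol fits the pattern. A matching homologue name was carried by 79 targets with 48 names, and whether each is the orthologue was not checked. With the members they make a wider set of 153 targets. Of these, 29 are of assembly factors and regulators and 1, cox4nb, is not of the chain. Of these 153, 0 had an unadjusted limma p under 0.05, against 4.41% of all targets, and the median change was 0.02 log2. Groups did not overlap for 7 of them, against 9.49% of all targets. The interval lay within 1.5-fold for 120 of them, against 50.2% of all targets. Cytochrome c itself, cycsb, entered this way, at 15.09, 15.25 and 15.28 in controls and 15.32, 15.33 and 15.18 in lead, a change of 0.07 ± 0.13 between overlapping groups.

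The wider set also gave subunits that the rule had not reached. In complex I, a target named after NDUFS1 changed by 0.05. In complex IV, cox5aa changed by -0.09 ± 0.17 and cox6a2, known in mammals as the heart and muscle form of subunit VIa, by -0.24 ± 0.24. In complex III, uqcrc1, a core protein, stood at 14.67, 14.46 and 14.42 in controls and 14.58, 14.55 and 14.33 in lead and changed by -0.03 ± 0.14. The groups overlapped in all of these.

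Where a subunit had 2 or more targets above the random probes, homologue names included, as 34 did, the targets differed by a median of 0.09 log2 in their change, and by under 0.2 in 25 of 34. In 16 of 34 all targets lay on 1 side of 0. Targets were grouped by name, so those on different chromosomes, such as uqcrc1 on chromosomes 6 and 1, count as 1 subunit here. The widest were ndufa9, at -0.36 to 0.26, ndufs7, a core iron-sulfur subunit, at -0.38 to 0.14, and uqcrc1, at -0.48 to 0.03.

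A core set of subunits is encoded in mitochondrial DNA, and 7 of 13 were found by symbol. They were mt-nd1, mt-nd2, mt-nd3, mt-nd5 and mt-nd6 of complex I, mt-cyb of complex III and mt-co2 of complex IV. Their changes ran from -0.04 to 0.08 log2, all 7 intervals lay within 1.5-fold, and 0 had an unadjusted p under 0.05. The gene mt-co2, whose product receives electrons from cytochrome c, stood at 15.25, 15.38 and 15.46 in controls and 15.43, 15.24 and 15.37 in lead. Control 1 was low in mt-nd1, mt-nd2, mt-nd6 and mt-cyb, with a median deviation of -0.16 over the 7 genes, and control 3 was high, at 0.12. Lead brains lay between them, at -0.02 to 0.02. These transcripts, at 14.84 to 15.56, also lay near the top of the array's scale.

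Other mitochondrial and energy genes were read from lists by their symbols. Measured means found by symbol, and targets that carry only the name of a homologue were not searched. Of 15 measured genes of the citric acid cycle and pyruvate dehydrogenase, 18 of glycolysis, 16 of antioxidant defence and electron carriers and 23 of protein import and cristae, 0 had an unadjusted p under 0.05. Their medians were -0.04, 0.00, 0.03 and 0.10 log2. In the same order, the interval lay within 1.5-fold for 14 of 15, 11 of 18, 12 of 16 and 20 of 23 targets, beside 38 of the 46 members. For the assembly, biogenesis and transport genes described below, the interval did so for 12 of 15, 5 of 11 and 6 of 13. Over all targets the share was 50.2%. Narrow intervals were thus not particular to the oxidative phosphorylation genes, though not every list had them. In glycolysis pgam1b, a phosphoglycerate mutase, stood at 14.50, 14.58 and 14.83 in controls and 14.43, 13.95 and 14.47 in lead, a change of -0.35 ± 0.19. Among the higher ones, aldoca (0.47 ± 0.26) had the smallest p in the glycolysis list. In the list of the citric acid cycle and pyruvate dehydrogenase it was mdh1b (0.46 ± 0.32), while mdh2 of that list changed by 0.05 ± 0.12. Both aldoca and mdh1b were above the random probes in 1 of 3 controls and 1 of 3 lead brains. In import, tomm40, the channel of the outer membrane, changed by 0.33 ± 0.16, and in electron carriers and antioxidants coq8aa, needed for ubiquinone synthesis, by 0.21 ± 0.15 and txn2, mitochondrial thioredoxin, by -0.27 ± 0.13. The cristae gene chchd6b changed by -0.09 ± 0.15, and its sign turned without control 1.

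Over the 8 lists, the mitochondrially encoded one included, 4 of 118 targets had an unadjusted limma p under 0.05, or 3.39%, against 4.41% of all targets. The 4 belong to the lists of assembly, biogenesis and transport genes, and each had an adjusted p of 0.958. Groups did not overlap for 2 of 15 assembly, 1 of 11 biogenesis and 2 of 13 transport targets, against 9.49% of all targets. The count was 1 of 7 mitochondrially encoded targets and 1 of 15 of the citric acid cycle and pyruvate dehydrogenase. It was 1 of 18 in glycolysis, 1 of 16 in antioxidants and electron carriers and 3 of 23 in import and cristae. The gene tfb1m, a methyltransferase of mitochondrial ribosomal RNA, stood at 10.32, 10.35 and 10.39 in controls and 10.73, 10.87 and 10.75 in lead. All lead brains were above all controls, by 0.43 ± 0.12 (limma adjusted p = 0.958), close above the random probes. It was 1 of 11 measured biogenesis targets, of which 8 had a change above 0 and 3 below, with a median of 0.19. In that list esrrgb, with the smallest p among the lower ones, was under the random probes in every brain, as was pdk2b in the list of the citric acid cycle and pyruvate dehydrogenase.

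Among carriers, ucp1, an uncoupling protein, stood at 14.66, 14.64 and 14.62 in controls and 14.17, 14.39 and 14.36 in lead. All lead brains were below all controls, by -0.33 ± 0.12 log2 (limma adjusted p = 0.958). The mitochondrial creatine kinase gene ckmt2b was 0.72 ± 0.18 higher (limma adjusted p = 0.958), but it was above the random probes in 1 of 3 controls and 3 of 3 lead brains.

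In the list of assembly and copper insertion genes, lyrm2, a gene of the LYR motif family to which several complex I factors belong, stood at 13.43, 12.96 and 13.27 in controls and 12.40, 12.80 and 12.82 in lead. All lead brains were below all controls, by -0.55 ± 0.18 (limma adjusted p = 0.958). Of this list 15 of 41 genes were found by symbol, 9 with a change above 0 and 6 below. The genes sdhaf3 and sdhaf4, both below, are also among the 153 targets. The heme lyase gene hccsa, which attaches heme to cytochrome c, was at 13.08, 12.99 and 13.07 in controls and 13.30, 13.25 and 13.17 in lead, a change of 0.20 ± 0.12 (limma adjusted p = 0.958) between groups that did not overlap.

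**Figure D5:**
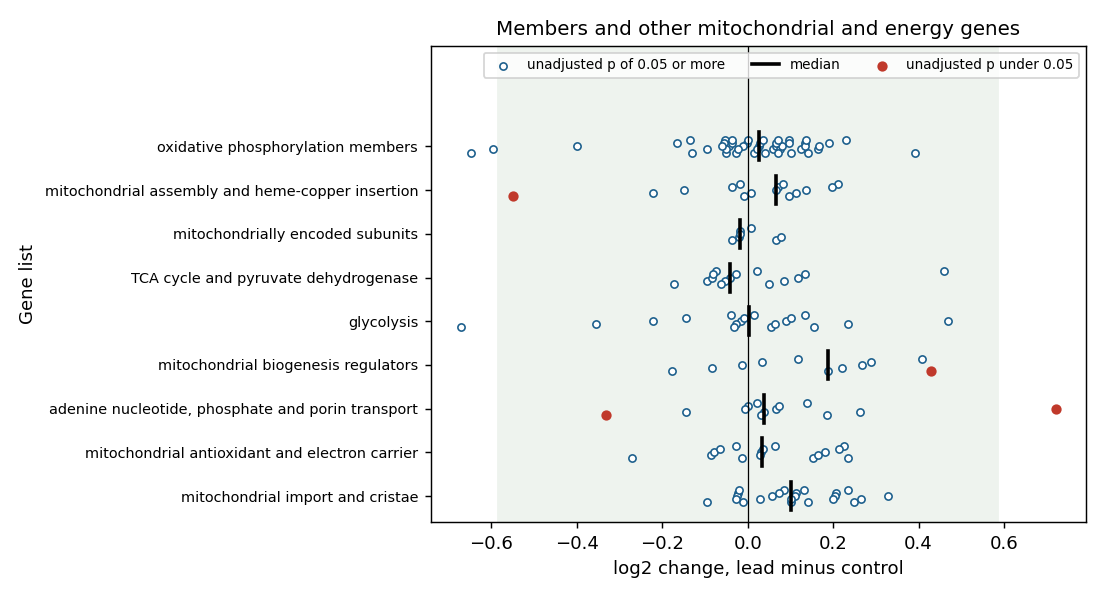
Log2 change, lead minus control (x axis), of each member target and of each measured gene of 8 other mitochondrial and energy lists (y axis), with medians as black bars, filled points for an unadjusted p under 0.05 and the 1.5-fold band in green. The members and 5 of the 8 lists have no filled point; lyrm2 (-0.55), ucp1 (-0.33), tfb1m (0.43) and ckmt2b (0.72) are the filled ones, and none passes adjustment.

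Markers of other cells moved with the groups in part. All 6 measured erythrocyte markers had a lower mean in lead, with a median change of -0.94 log2. Their summed intensity was 94725 to 102228 in controls and 44667 to 89513 in lead. Lead 1 stood near the controls, with a median deviation of 0.32 beside 0.38 to 0.61, while lead 2 and lead 3 were at -1.03 and -0.64. The groups did not overlap for 2 of the 6, against 9.49% of all targets. Summed pituitary markers were 8134 to 78439 in controls, where control 1 was the high brain, and 6036 to 15848 in lead. Summed skin markers were 16027 to 33985 in controls, where control 1 was again the high brain, and 15286 to 19925 in lead. Summed vessel and meninges markers were 24983 to 43400 in controls and 27206 to 43289 in lead. Summed neuron markers were 218100 to 240603 in controls and 246136 to 248776 in lead, where slc17a7a, a vesicular glutamate transporter, was the 1 gene of 8 whose groups did not overlap. Without it the sums were 211348 to 227937 and 224564 to 230472, which overlap, and the median change of the 8 was 0.04 log2. Of 9 skeletal muscle markers 1 exceeded the random probes in all 6 brains, and all 4 heart markers were under them throughout. The part of these cells in the values of the oxidative phosphorylation genes was not tested. The authors' deposited table of 94 altered targets, where the array has 38489, held 0 of the 46 members and 0 of the other 107 targets of the wider set. With so small a part of the array in that table, a count of 0 says little about these genes.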

How the data were processed

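The values are target intensities on a linear scale, deposited by the authors as 1 table per array and made with RMA per the submitters' processing notes (version not given in the sources used here). The same files hold a score for each target's standard error, per the file headers, not used in a test. The authors also deposited probe intensities of 113549 probes and 27114 random control probes. A further table deposited by the authors gives a p-value, a fold and a log2 ratio for 94 altered targets and was used only to look up members. The log2 of each intensity was taken with no added constant and no filter. All 38489 targets were fitted with limma 3.58.1 in R 4.3.3 (moderated test, two-sided), adjusted by Benjamini-Hochberg over all targets at a threshold of 0.05; single probes were fitted likewise. The test was tried on simulated data. Background was each array's 95th percentile of the random probes (948 to 1312 in intensity). Precision is limited by the number of fish: a change had a median standard error of 0.14 log2 over members and 0.18 over all targets. Of 3055 RefSeq targets 2663 were named through a table of assembly GRCz12tu, used for names only; coordinates are on Zv7, except those of targets named OTTDART, whose assembly is not given, and none of these is printed. No exon annotation was used.

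The members and lists were chosen with earlier results of these data known. Genes named are members with an unadjusted p under 0.05, the highest and lowest change in each complex among targets above the random probes, fixed core subunits, genes whose targets differ in sign by over 0.5 log2, and the smallest p in each direction of each list; ndufs3, ndufa9, ndufab1 and others beyond these were chosen after their values were seen. For lists, the target of highest mean over the arrays stands for a gene with several. Alternatives were other filters, normalizations and moderation, a constant before log2, a replicate block, other member definitions and leaving out each brain. Software was Python 3.11.15 with numpy 2.4.6, pandas 2.3.3 and, for figures, matplotlib 3.10.9.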

Additional observations from a re-analysis of the deposited data

How the results depend on the processing

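The count of members past the adjusted threshold was 0 in every alternative run, and the median change of the members stayed between 0.01 and 0.04 log2 in all of them. Over all targets the count past the adjusted threshold was 0 (1696 at an unadjusted p under 0.05, 1655 without moderation and 1651 with trend and robust moderation), except that 1 target, no member, passed with only targets at or above the median mean. Members at an unadjusted p under 0.05 numbered 1 with the replicate block (ndufs8, limma adjusted p = 0.850), 1 with trend and robust moderation and 1 without moderation (both ndufs6), and 0 to 1 with a brain left out (ndufs8b without control 2, sdhda without lead 2), where the count over all targets ran from 1063 to 3098. In this balanced design the block leaves each change as it was and alters only its standard error and p. Correlations of deviations were 0.31, 0.03 and -0.05 for brains of equal replicate number and -0.23 to 0.24 for unequal numbers. Replicate numbers thus did not pair the brains throughout. The median of complex II was -0.15 with only targets above the random probes or at or above the median mean. With a brain left out, medians ran from 0.0040 to 0.072 in complex I, 0.011 to 0.19 in II, -0.027 to 0.042 in III, -0.14 to 0.040 in IV and -0.016 to 0.025 in V. Members whose groups do not overlap numbered 1 after quantile normalization again and 4 to 9 with a brain left out. In the wider set, an alternative chosen after seeing the data, the count was 7 of 153, against 9.49% of all targets. The cause of these differences was not tested.

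Among 40 named targets 25 kept their direction in every alternative, and 21 of 543 values turned, the cause not tested. With each array centred on its median uqcrfs1 was 0.014. The others turned with 1 brain left out. Over the 6 omissions the change ran from -0.21 to 0.0017 for cyc1 (-0.14 to 0.22 for its second target), -0.024 to 0.019 for uqcrfs1, -0.027 to 0.064 for uqcrq and -0.076 to 0.051 for uqcrc1. It ran from -0.017 to 0.067 for cox4i1, -0.17 to 0.48 for cox5b2, -0.25 to 0.041 for cox5aa and -0.18 to 0.066 for cox15. For atp5f1 it was -0.23 to 0.047, for atp5f1b -0.024 to 0.13 and for atp5i -0.030 to 0.17. For 1 target of sdhc it was -0.090 to 0.36, for mt-nd3 -0.081 to 0.034 and for chchd6b -0.17 to 0.032. Without slc17a7a, left out after seeing the data, the lowest summed neuron marker intensity in lead minus the highest in controls turned from 5533 to -3373.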

Other observations

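In the wider set, 3 overlapping targets named after UQCRC1 on Zv7 chromosome 1 moved together across the brains. The first read 13.96, 13.25 and 13.23 log2 in controls and 13.23, 12.50 and 13.46 in lead; control 1 was the highest and lead 2 the lowest brain in all 3. Their changes were -0.42 ± 0.31, -0.48 ± 0.28 and -0.38 ± 0.30, and 0 of the 3 had an unadjusted p under 0.05. The target named uqcrc1 in RefSeq, on chromosome 6, changed by -0.03.

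A target named after COX4I2, the alternative form of the regulatory subunit of complex IV, read 13.55, 13.15 and 13.18 in controls and 12.64, 12.63 and 13.27 in lead, a change of -0.45 ± 0.22 (limma adjusted p = 0.958). Lead 3 lay within the control range and the other lead brains lay below it. The member target of cox4i1, the common form, changed by 0.02, and targets named after the COX4I1 homologue by 0.20 and 0.08. The 6 targets of ndufaf1, an assembly factor of complex I, that were found through the current symbol changed by 0.02 to 0.25. They come from 1 locus and are not separate genes. Groups did not overlap for 1 of the 6, where this held for 10.0% of all targets above the random probes.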
